A study of Mus musculus with 18 samples.

Results

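The 6 genes described here are the receptors of the interleukin-1 (IL-1) family Il1rl1, Il1r2, Il18r1, Il18rap and Sigirr, together with Myd88, the adaptor through which the signalling receptors of the family act. They were taken by name from a table of 23420 genes, and all 6 were among the 10630 genes with enough counts to test. The values come from bulk RNA-seq of sorted mouse regulatory T cells (Treg), with 18 libraries in 6 groups of 3. The 3 genotypes are FCre with C1 fl/fl, C1 fl/+ and C1 +/+, where C1 is the labels' name for the floxed gene, and each was sampled as effector (activated, eTreg) and as resting (cTreg) cells. FCre is carried by all 6 groups, the +/+ controls included, and neither its promoter nor the excised exons are given in the sources used here, nor are age, sex, tissue, sorting gates or pooling. Whether the replicates of a group came from different mice is not stated, and p-values measure only the spread between these samples, which may be technical. In bulk RNA, fewer cells of a type and less RNA per cell cannot be told apart.

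IL-1 family receptors carry an intracellular Toll/IL-1 receptor domain, and when a cytokine brings a ligand-binding chain together with an accessory chain, that domain recruits MYD88 and the IRAK kinases and activates NF-kB and MAP kinases. Il1rl1 encodes ST2, the IL-33 receptor chain, which marks a large share of Treg in skin, gut, muscle and fat. Il18r1 and Il18rap encode the binding and accessory chains of the IL-18 receptor. Il1r2 encodes a decoy receptor that binds IL-1 without a signalling domain, and Sigirr encodes a receptor that dampens signalling by the family.

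Library totals ran from 1658073 to 5756903 counts with a median of 3154386. Principal components were taken from the 1000 genes that varied most between libraries. The first held 56.1% of the variance of those genes and parted effector from resting libraries. On it fl/fl resting replicate 1 was at -12.6 against -37.3 to -22.3 for the other resting libraries. The fl/fl effector libraries were at 28.2, 2.2 and 11.6 against 24.8 to 40.9 for the other effector libraries. The 6 T cell or Treg marker genes Foxp3, Il2ra, Ctla4, Ikzf2, Cd4 and Cd3e were all detected in every group. They summed to 1930 to 3390 CPM (counts scaled to library size and normalised by TMM) per library. Of 8 mast cell or basophil genes, whose cells also carry ST2, at least 4 were at 0 in every group, Cpa3 and Mcpt8 among them, and the 8 summed to 2.32 to 9.44 CPM.

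Effector Treg expressed more Il1rl1, Il1r2, Il18r1 and Il18rap than resting Treg in each of the 3 genotypes, while Sigirr and Myd88 were not called in any. Thus 4 of the 6 genes were called higher in each state comparison at a Benjamini-Hochberg adjusted p under 0.05 in the edgeR quasi-likelihood test. Of all tested genes, 5.01% were called higher in fl/fl, 9.72% in fl/+ and 9.49% in +/+. The median log2 change of the 6 genes was 1.53 in fl/fl, 1.72 in fl/+ and 2.14 in +/+ Treg, and that of all tested genes was -0.0124, -0.00745 and -0.012 in the same order. Some genes listed as markers of other cells also differed between states. The 8 NK or CD8 T cell genes summed to 30.8 to 69.4 CPM in fl/fl effector against 36.9 to 51.3 CPM in fl/fl resting libraries, to 19.4 to 21 CPM in fl/+ effector against 38.6 to 45.3 CPM in fl/+ resting libraries, and to 22.2 to 27.5 CPM in +/+ effector against 37.5 to 49 CPM in +/+ resting libraries. Of these, Cd8b1 and Prf1 were called lower in effector cells of fl/+ (-0.77 and -2.38) and +/+ (-0.70 and -2.22). They averaged 22.7 and 16.8 CPM in +/+ resting cells, most of that sum. Klrb1c, the other gene of this list tested, was not called and averaged higher in effector cells. Its means were 8.29 against 2.01 CPM in fl/fl, 3.23 against 0.575 CPM in fl/+ and 2.82 against 0.169 CPM in +/+. The 8 myeloid genes summed to 92 to 104 CPM in +/+ effector against 63.6 to 68.7 CPM in +/+ resting libraries. Most of that sum was Cst3, called higher (0.53), at means of 91.7 and 63.3 CPM. Lyz2 averaged 4.12 against 1.35 CPM in the same groups, and Itgam 0.704 against 1.47 CPM. Over fl/fl and fl/+ the 8 genes summed to 68.7 to 98.7 CPM, and S100a8 had no count in any library. The 8 B cell genes summed to 9.64 to 97.5 CPM over the 18 libraries, both ends in +/+ resting cells, and none was called between states. Of the mast cell or basophil genes Ms4a2 was called lower in +/+ effector cells (-1.93). Kit, the other gene of that list tested, was not called. In effector against resting cells Kit averaged 3.11 against 0.515 CPM in fl/fl and 4.74 against 1.82 CPM in +/+. In fl/+ it was the other way, at 1.58 against 3.81 CPM. The part of such cells in the state changes was not tested. Some of the calls in fl/fl and fl/+ rested on single libraries, which are named with each gene.

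**Figure D1:**
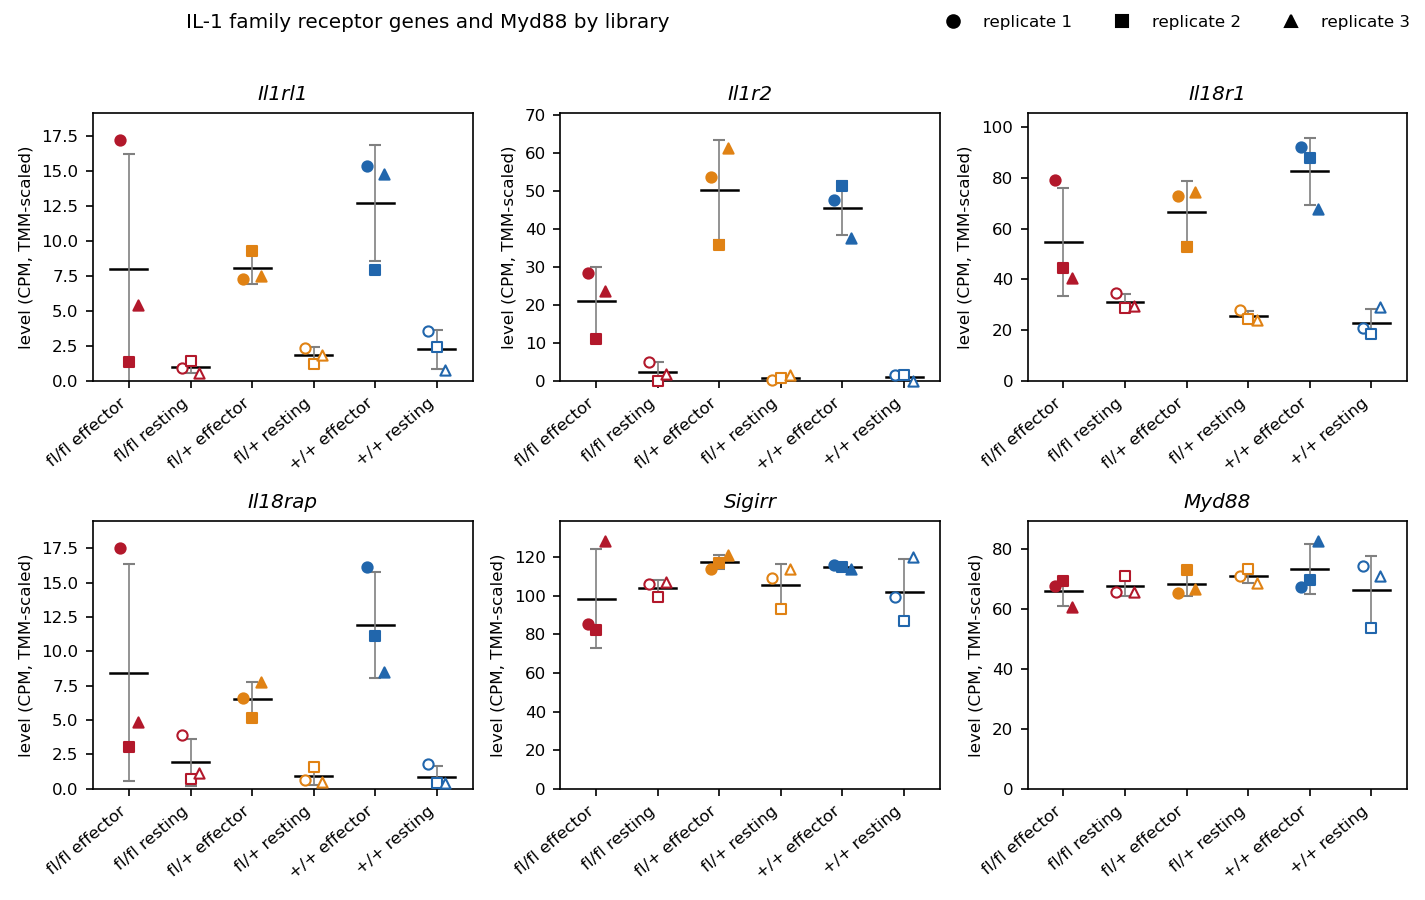
Level of each gene in CPM (y axis, linear from 0) in each of the 18 libraries, by group, with marker shape for the replicate number, filled markers for effector and open ones for resting libraries; bars are group means and whiskers SD (n = 3), with the lower whisker of Il1rl1 in fl/fl effector cells reaching below the axis. In fl/fl effector cells replicate 1 is the highest library for Il1rl1, Il18r1 and Il18rap, at 17.2, 79 and 17.5 CPM, while the levels of Sigirr and Myd88 in the 2 states lie close together.

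Il1rl1, at chr1:40404864-40465418 (RefSeq annotation of GRCm38.p6, the same build as mm10), was low throughout. It was at 17.2, 1.34 and 5.44 CPM in fl/fl effector libraries 1, 2 and 3, against 0.895, 1.44 and 0.59 CPM in fl/fl resting libraries. In fl/+ it was at 7.28, 9.32 and 7.5 CPM in effector libraries, against 2.37, 1.18 and 1.88 CPM in resting libraries. In +/+ it was at 15.4, 7.93 and 14.8 CPM in effector libraries, against 3.55, 2.43 and 0.79 CPM in resting libraries. Every effector library of fl/+ and +/+ lay above every resting library of its genotype, but fl/fl effector replicate 2 lay within the fl/fl resting range. The log2 change was 3.14 in fl/fl (SE 0.715, adjusted p = 0.0111), 2.06 in fl/+ (SE 0.637, adjusted p = 0.0312) and 2.43 in +/+ (SE 0.609, adjusted p = 0.00858). Taken within each replicate number, the fl/fl change was 3.58, -0.07 and 2.35 for numbers 1, 2 and 3, so that number 2 showed none. The fl/fl call was lost without effector replicate 1 (1.62, adjusted p = 0.325) and without resting replicate 3 (2.88, adjusted p = 0.0654). The fl/+ call was lost whenever any 1 of the 6 fl/+ libraries was left out, at log2 changes of 1.86 to 2.39 and adjusted p of 0.0529 to 0.106. Neither call was made by limma on log2(FPKM + 1), with or without a filter, or on log2(FPKM + 0.1). Those limma fits gave adjusted p of 0.0834 to 0.171 in fl/fl and 0.0529 to 0.111 in fl/+. In +/+ the call held in all 28 alternative settings. The table gives 1 value per gene, so the membrane-bound and the soluble form of ST2, which come from the same gene, were not separated. Il1rl1 ends 133 bases before Il18r1 begins. Its estimated counts were not whole numbers in 16 of 18 libraries (those of Il18r1 in all 18). Over all genes, 29.4% of nonzero values were not whole. Whether reads were divided between the neighbours was not tested, and the values of both are uncertain to that extent.

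Il1r2, at chr1:40084692-40125230, showed the widest separation of the states among the 6 genes in fl/+ and +/+. It was at 28.3, 11.1 and 23.6 CPM in fl/fl effector libraries, against 5.07, 0 and 1.77 CPM in fl/fl resting libraries. In fl/+ effector libraries it was at 53.6, 35.7 and 61.4 CPM, against 0.215 to 1.41 CPM in fl/+ resting libraries. In +/+ effector libraries it was at 47.7, 51.3 and 37.7 CPM, against 1.52, 1.62 and 0 CPM in +/+ resting libraries. All effector libraries therefore lay above all resting libraries of any genotype. The log2 change was 3.13 in fl/fl (SE 0.528, adjusted p = 0.00139), 6.19 in fl/+ (SE 0.622, adjusted p = 8.09e-06) and 5.31 in +/+ (SE 0.579, adjusted p = 1.05e-05), and it was called in each genotype under all 28 alternatives. The resting groups held only 23, 6 and 10 counts in fl/fl, fl/+ and +/+, so the size of these changes is less certain than their direction. By group mean the order was fl/+ effector (50.3 CPM, SD 13.2), +/+ effector (45.6, SD 7.04), fl/fl effector (21, SD 8.91), fl/fl resting (2.28, SD 2.57), +/+ resting (1.05, SD 0.909) and fl/+ resting (0.804, SD 0.597). The means of the first pair lay within each other's SD, and the ranges of ± 1 SD of the 3 resting groups overlapped.

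Il1r1, the signalling receptor for IL-1 and the gene next to the decoy, was scarcer. It was at 7.71, 0.671 and 0 CPM in fl/fl effector libraries, where resting libraries held 1 count in all. In fl/+ effector libraries it was at 4.8, 2.59 and 4.11 CPM, again with 1 count in the resting group. In +/+ effector libraries it was at 9.08, 13.2 and 0.739 CPM, and resting libraries held no count. With the floor set at 3 counts over the resting group, the pooled level of the +/+ effector group (70 counts) was 22.4-fold that floor. The figure leaves out the spread between effector libraries, of which replicate 3 was at 0.739 CPM. The state difference was called in +/+ (adjusted p = 0.00529) and fl/+ (adjusted p = 0.0339) but not in fl/fl (adjusted p = 0.0775). In both fl/fl and +/+ effector cells 1 library or more was near 0 beside at least 1 above 7 CPM.

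Il18r1, at chr1:40465552-40500854, was present in both states. It was at 79, 44.3 and 40.5 CPM in fl/fl effector libraries, against 34.6, 28.5 and 29.5 CPM in fl/fl resting libraries. In fl/+ it was at 72.7, 52.8 and 74.5 CPM in effector libraries, against 27.8, 24.4 and 23.9 CPM in resting libraries. In +/+ it was at 92.3, 87.7 and 67.6 CPM in effector libraries, against 20.8, 18.6 and 29.2 CPM in resting libraries. Effector and resting libraries did not overlap in any genotype, and the gap was narrowest in fl/fl. The log2 change was 0.86 in fl/fl (SE 0.222, adjusted p = 0.0231), 1.38 in fl/+ (SE 0.223, adjusted p = 0.000242) and 1.86 in +/+ (SE 0.229, adjusted p = 2.27e-05). The fl/fl call was lost in 8 of 28 alternatives. Among these were the fits without fl/fl effector replicate 1 (0.47, adjusted p = 0.290), resting replicate 2 (0.82, adjusted p = 0.0912) or resting replicate 3 (0.83, adjusted p = 0.0899). The calls of fl/+ and +/+ held under all 28 alternatives.

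Il18rap, at chr1:40515362-40551707, the accessory chain that IL-18 signalling requires, was nearly absent from resting cells. It was at 17.5, 3.02 and 4.84 CPM in fl/fl effector libraries, against 3.88, 0.722 and 1.18 CPM in fl/fl resting libraries. In fl/+ it was at 6.62, 5.18 and 7.74 CPM in effector libraries, against 0.646, 1.57 and 0.47 CPM in resting libraries. In +/+ it was at 16.1, 11.1 and 8.5 CPM in effector libraries, against 1.78, 0.405 and 0.395 CPM in resting libraries. The states overlapped in fl/fl and not in fl/+ or +/+. In fl/fl resting replicate 1 lay above effector replicate 2, although each replicate number taken alone was higher in effector cells, by 2.02, 1.46 and 1.62. The log2 change was 2.20 in fl/fl (SE 0.626, adjusted p = 0.0400), 2.86 in fl/+ (SE 0.739, adjusted p = 0.0105) and 3.58 in +/+ (SE 0.702, adjusted p = 0.00135). The fl/fl call was lost in 10 of 28 alternatives, among them those without effector replicate 1 (0.93, adjusted p = 0.598), resting replicate 2 (1.86, adjusted p = 0.164) or resting replicate 3 (1.93, adjusted p = 0.164). It was also lost without +/+ effector replicate 2 (adjusted p = 0.0508) or fl/+ effector replicate 1 (adjusted p = 0.0513), which enter through the shared spread. The fl/+ call was lost without fl/+ resting replicate 1 (2.58, adjusted p = 0.0740), and the +/+ call held under all 28.

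Sigirr, at chr7:141091175-141100597, had high and similar levels in both states. It was at 85.2, 82.2 and 128 CPM in fl/fl effector libraries, against 106, 99.2 and 107 CPM in fl/fl resting libraries. Over the other 4 groups it ran from 86.7 to 121 CPM. The state change was -0.11 in fl/fl (95% interval -0.40 to 0.19), 0.15 in fl/+ (-0.13 to 0.44) and 0.17 in +/+ (-0.12 to 0.47), with adjusted p of 0.750, 0.510 and 0.450. Myd88, at chr9:119335934-119340018, ran from 53.5 to 82.8 CPM over all 18 libraries. Its state change was -0.03 in fl/fl (95% interval -0.29 to 0.23), -0.06 in fl/+ (-0.31 to 0.20) and 0.14 in +/+ (-0.12 to 0.39), with adjusted p of 0.942, 0.817 and 0.514. The fl/+ effector libraries of Sigirr, at 114 to 121 CPM, all lay above the fl/+ resting libraries, by a narrow gap, and elsewhere the states overlapped for both genes. For both genes the intervals leave room for a change of up to about 0.47 on the log2 scale.

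**Figure D2:**
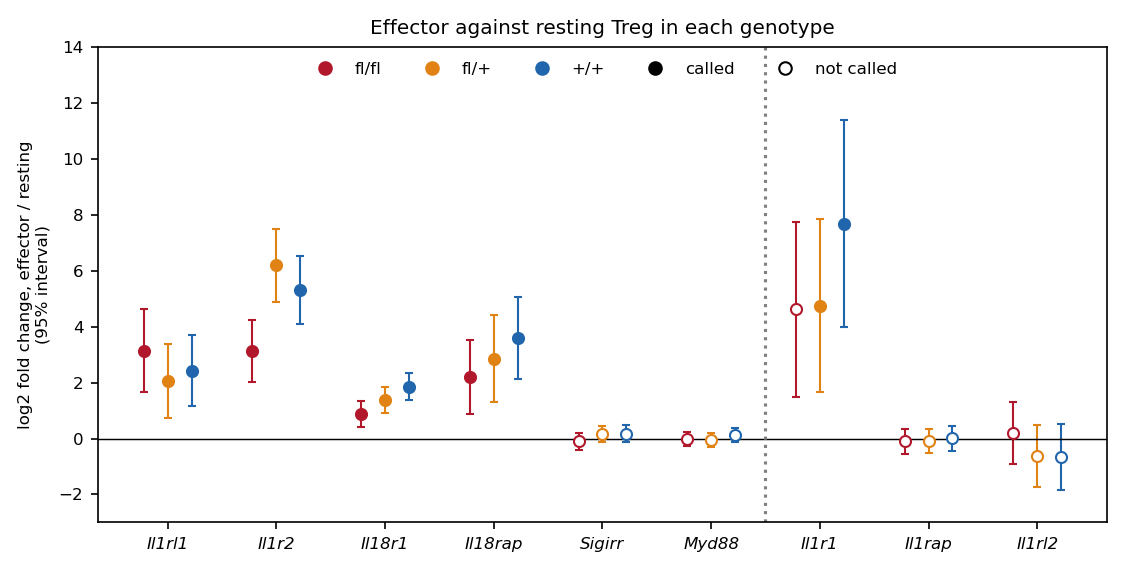
Log2 fold change of effector over resting cells (y axis) with its 95% interval for the 6 genes and, right of the dotted line, 3 other receptors of the family, in fl/fl, fl/+ and +/+; filled points were called. The intervals of Il1rl1, Il1r2, Il18r1 and Il18rap lie above 0 in all genotypes and those of Sigirr and Myd88 span it; the fitted values of Il1r1 rest on 0 to 1 resting counts and are not bounds.

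Levels were compared between genes only per length, as FPKM. In +/+ effector cells Sigirr averaged 62.8 ± 1.85 FPKM, Myd88 41.9 ± 4.97, Il1r2 37.7 ± 5.35, Il18r1 36.7 ± 6.64, Il18rap 5.17 ± 1.77 and Il1rl1 2.83 ± 0.835 FPKM (SD, n = 3 each). The ranges of ± 1 SD of Myd88, Il1r2 and Il18r1 overlapped, and Sigirr stood above them and Il18rap and Il1rl1 below by more than the SDs, while those of Il18rap and Il1rl1 overlapped too. In +/+ resting cells Sigirr averaged 52.3 ± 10 FPKM and Myd88 35.6 ± 6.83 FPKM (SD, n = 3), followed by Il18r1 at 10.7 ± 3.1 FPKM (SD, n = 3), while Il1r2, Il1rl1 and Il18rap were at 0.8, 0.467 and 0.347 FPKM, with SDs of 0.693, 0.272 and 0.323 and overlapping ranges. The decoy receptor was thus among the scarcest of the 6 transcripts in resting cells, and its mean in +/+ effector cells was within 1 SD of that of Il18r1. Il1rap, the accessory chain shared by the IL-1 and IL-33 receptors, averaged 5.04 to 5.73 FPKM in all 6 groups. In every group of 3 its mean FPKM exceeded that of Il1rl1, the chain with which it pairs.

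**Figure D3:**
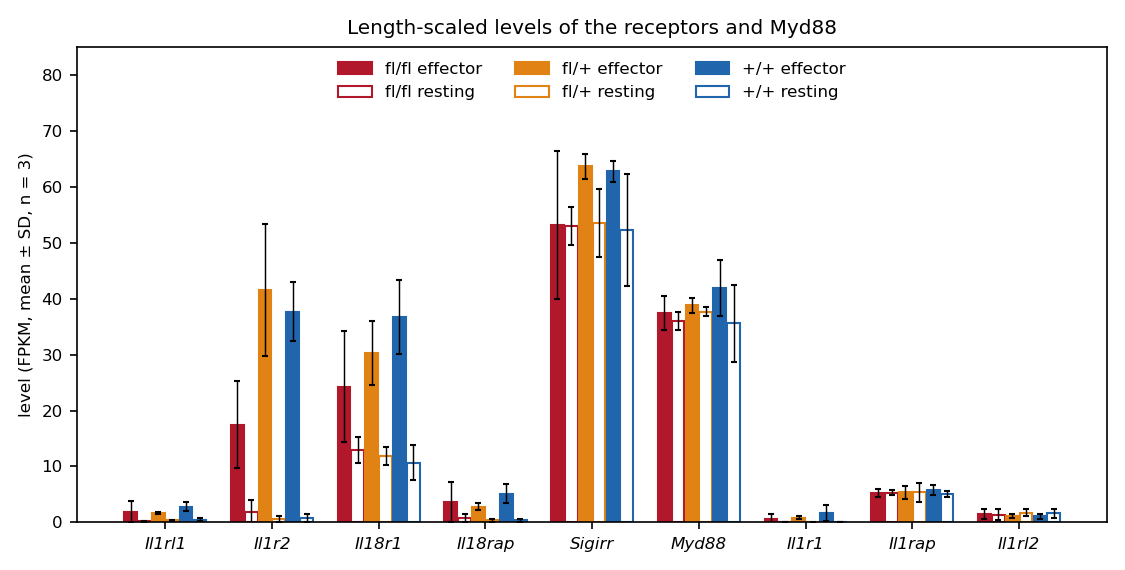
Mean level in FPKM (y axis, linear from 0) with SD (n = 3) of the 6 genes and of Il1r1, Il1rap and Il1rl2 in each group; filled bars are effector and open bars resting cells. Sigirr and Myd88 stand above 35 FPKM in all groups, while Il1r2 is at 17.5, 41.6 and 37.7 FPKM in fl/fl, fl/+ and +/+ effector cells and at no more than 1.82 FPKM in resting cells.

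Of the 6 genes, 4 lie in one cluster of 6 protein-coding receptor genes on chromosome 1, which spans 467016 bases (chr1:40084692-40551707) in the order Il1r2, Il1r1, Il1rl2, Il1rl1, Il18r1 and Il18rap. Of all tested genes, 5.01% were called higher in effector cells of fl/fl, 9.72% in fl/+ and 9.49% in +/+. Of the 6 neighbours, 4 were called higher in effector cells of fl/fl and 5 in those of fl/+ and +/+. Il1rl2, the receptor for IL-36, was the exception, with changes of 0.20, -0.64 and -0.66 in fl/fl, fl/+ and +/+ (adjusted p of 0.891, 0.477 and 0.489) at means of 2.03 to 3.29 CPM. Outside the cluster, Map4k4, a kinase gene on one flank, was at -0.48, -0.43 and -0.40 (adjusted p of 0.327, 0.265 and 0.327), and Mfsd9 on the other was not called either. Rnf149, a further neighbour, was called in +/+ alone (1.05, adjusted p = 0.0194), at 0.45 in fl/fl and 0.52 in fl/+. Creg2, Rfx8, Slc9a4, Slc9a2 and Tmem182 were too low to test.

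**Figure D4:**
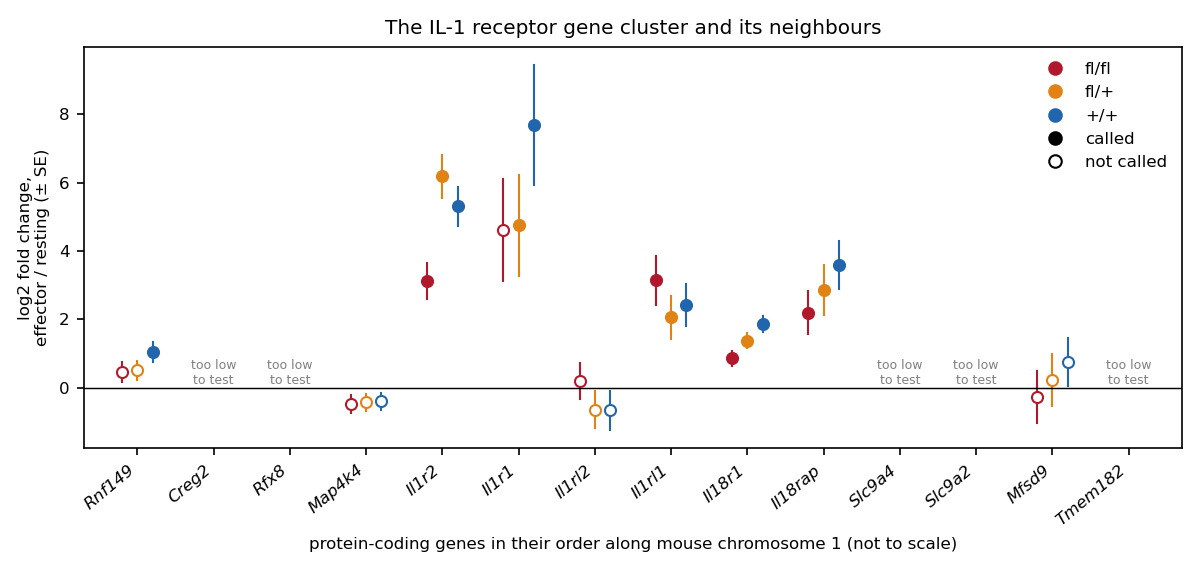
Log2 fold change of effector over resting cells (y axis, ± SE) for the protein-coding genes around the receptor cluster, in their order on the chromosome and not to scale; filled points were called. The points of Il1r2, Il1r1, Il1rl1, Il18r1 and Il18rap lie above 0 in all genotypes, whereas Map4k4, Il1rl2 and Mfsd9 have no filled point.

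Because these 4 receptor genes moved together between states, the 250 bases before their listed promoter starts were searched on both strands. The letters sought were a form of the NF-kB site (GGNNTTTCC), the AP-1 site (TGANTCA) and the core of the NFAT site (GGAAA). Promoter starts on GRCm38.p6 were available for 5 of the 6 genes, all but Sigirr. The windows of Il1r2 and Il1rl1 lie inside the annotated genes, which begin at chr1:40084692 and chr1:40404864. The annotated 5′ ends of Il1r2 and Il1rl1 were therefore not searched. The 4 stretches below show what a reader would compare: 1 with a match to the NF-kB letters, 1 with no match and the pair of starts of Il1rl1. All are on the plus strand, 5′ to 3′, and capitals mark the matched letters.
Il1r2, chr1:40085843-40086092: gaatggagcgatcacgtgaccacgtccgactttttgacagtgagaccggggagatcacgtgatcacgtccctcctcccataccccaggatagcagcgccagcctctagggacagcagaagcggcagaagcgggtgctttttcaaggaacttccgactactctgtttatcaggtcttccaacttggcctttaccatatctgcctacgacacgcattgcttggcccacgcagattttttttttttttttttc
Il1rl1, first listed start, chr1:40429320-40429569: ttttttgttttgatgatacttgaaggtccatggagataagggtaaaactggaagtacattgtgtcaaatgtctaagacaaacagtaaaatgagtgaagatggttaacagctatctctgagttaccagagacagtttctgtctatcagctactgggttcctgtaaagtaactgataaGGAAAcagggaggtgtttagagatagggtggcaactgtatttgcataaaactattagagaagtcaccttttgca
Il1rl1, second listed start, chr1:40439379-40439628: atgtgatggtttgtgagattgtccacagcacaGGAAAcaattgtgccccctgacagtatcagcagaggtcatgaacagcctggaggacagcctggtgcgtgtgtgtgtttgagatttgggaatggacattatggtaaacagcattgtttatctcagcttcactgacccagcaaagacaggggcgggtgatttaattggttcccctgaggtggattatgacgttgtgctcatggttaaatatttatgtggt
Il18rap, chr1:40515112-40515361: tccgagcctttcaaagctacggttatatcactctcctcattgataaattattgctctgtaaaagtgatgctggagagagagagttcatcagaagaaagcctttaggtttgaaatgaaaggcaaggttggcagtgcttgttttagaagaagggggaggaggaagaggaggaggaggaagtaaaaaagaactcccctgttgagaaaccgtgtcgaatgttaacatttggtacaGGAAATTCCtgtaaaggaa
The NF-kB letters occurred once among these genes, in Il18rap, 19 to 11 bases before the start (GGAAATTCC, the reverse strand matching the pattern), and they overlap its NFAT match. The AP-1 letters occurred in none of the 8 windows. The NFAT core occurred in each listed window of Il1rl1, Il18r1, Il18rap and Myd88 and not in that of Il1r2. Over all 32851 promoter windows the same letters were found in 4.93%, 6.75% and 55.6% for NF-kB, AP-1 and NFAT, so the NFAT core is common in any window of this length. These matches are a description of letters. A window without one says nothing of more distant elements or of other starts of the gene.

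The intracellular chain below the receptors did not follow them. Of 16 genes for the kinases and adaptors between MYD88 and NF-kB, all tested, none was called higher between states, and 0, 2 and 2 were called lower in effector cells of fl/fl, fl/+ and +/+, where 1.33%, 6.58% and 6.5% of all tested genes were called lower. Those called lower were Irak2, a kinase of the MYD88 complex (-0.34 in fl/fl, -0.55 in fl/+ and -0.65 in +/+, adjusted p of 0.161, 0.00594 and 0.00231), and Ikbkb, which encodes the IkB kinase IKKb (-0.34, -0.49 and -0.40, adjusted p of 0.0813, 0.00423 and 0.0183). At an unadjusted p under 0.05, 3 of the 16 genes were lower in fl/fl, 4 were lower and 1 higher in fl/+, and 3 were lower in +/+. The other 14, which are Irak1, Irak3, Irak4, Traf6, Tollip, Peli1, Map3k7, Tab1, Tab2, Tab3, Ecsit, Tirap, Ikbkg and Chuk, were not called in any state comparison. The ligands were mostly outside the range of the assay in these cells. Il1b, which encodes IL-1b, and Il1f6, Il1f8 and Il1f10 had no count in any library, and Il33, Il1a, Il1f5, Il18 and Il1rn had 3, 5, 1, 29 and 23.48 counts over all 18. Il1f9, an older symbol of the IL-36g gene, had 94.01, of which those of 16 libraries were not whole numbers. Il18bp, the soluble IL-18 antagonist, was the one such gene tested, at 362 counts, and was not called between states. Il1rapl1 and Il1rapl2 had 0 and 2 counts.

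Genes known from ST2-positive Treg of tissues were put on a list chosen with earlier results of these data known. In effector cells 5 of 11 were called higher in fl/fl, 8 of 11 in fl/+ and 9 of 11 in +/+. Their median log2 changes were 1.32, 1.28 and 2.12. Of all tested genes, 5.01%, 9.72% and 9.49% were called higher in the same order. Batf, a transcription factor that tissue Treg require, rose by 0.99 in fl/fl, 1.18 in fl/+ and 1.57 in +/+, and Ccr8, a chemokine receptor of such cells, by 2.66, 2.22 and 2.24. Irf4 and Rora, which encode transcription factors, and Tnfrsf9 were also called in all 3 genotypes. Nfil3, Il10 and Ikzf2 were called higher in fl/+ and +/+, and Areg, which encodes the repair factor amphiregulin, in +/+ alone, at adjusted p of 0.706, 0.638 and 0.0258 in fl/fl, fl/+ and +/+. Gata3 was not called between states, and Pparg was too low to test. Klrg1 was not called either, but its unadjusted edgeR p was under 0.05 in each genotype. It averaged 8.23 CPM in fl/fl effector cells (0 to 24.1 CPM) against 1.19 CPM in resting cells. In fl/+ it averaged 4.22 against 0.131 CPM, and in +/+ 11 against 0.761 CPM. The list of 9 genes around the response to IL-12 and IL-18 was also chosen with earlier results known. Of these 9, 5 were called higher in each genotype, beside the same shares of all tested genes: Il12rb1, Tbx21, Ifng, Cxcr3 and Gadd45b. Il12rb1, an IL-12 receptor chain, changed by 1.69, 2.13 and 2.13 in fl/fl, fl/+ and +/+, and Cxcr3, a chemokine receptor, by 3.45, 5.48 and 5.36. Gadd45g was called lower in fl/+ (-0.89, adjusted p = 0.0367) and +/+ (-0.95, adjusted p = 0.0442) and was at -0.20 in fl/fl.

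The genotype comparisons ask whether Treg with floxed C1 alleles differ in these genes within a state. In effector cells none of the 6 genes was called between fl/fl and +/+, where 2.81% of all tested genes were called, and DESeq2 and limma on log2(FPKM + 1) called none either. At an unadjusted p under 0.05, 2 of the 6 were lower in fl/fl, Il1r2 and Il18r1. Il1r2 differed by -1.10 (SE 0.376, 95% interval -1.88 to -0.31, edgeR adjusted p = 0.121), and the libraries did not overlap, with 11.1 to 28.3 CPM in fl/fl against 37.7 to 51.3 CPM in +/+ effector cells. Within the replicate numbers that difference was -0.74, -2.15 and -0.66. Il18r1 differed by -0.55 (SE 0.209, adjusted p = 0.160), and by -0.22, -0.98 and -0.73 within the numbers. Il1rl1, Il18rap, Sigirr and Myd88 differed by -0.58, -0.39, -0.25 and -0.14, with adjusted p of 0.652, 0.779, 0.394 and 0.636. The 6 estimates were all negative, with a median of -0.474 against 0.00678 for all tested genes.

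The fl/fl effector libraries were uneven, and replicate 1 decided much of this comparison. It held 17.2 CPM of Il1rl1 against 1.34 and 5.44 CPM in the other fl/fl effector libraries, and was also the highest of the 3 for Il1r2, Il18r1 and Il18rap. Without it Il1rl1 was called lower in fl/fl (-2.10, adjusted p = 0.0293), as was Il18r1 (-0.95, adjusted p = 0.00605), while Il1r2 was not. Without both fl/fl libraries of number 1, a setting chosen after the data were seen, Il1rl1 (-2.11, adjusted p = 0.0304), Il1r2 (-1.48, adjusted p = 0.0280) and Il18r1 (-0.96, adjusted p = 0.00574) were called lower. Leaving out fl/fl effector replicate 2 instead brought Il18rap to 0.006. In the same libraries, 8 NK or CD8 T cell markers summed to 30.8 to 69.4 CPM in fl/fl against 22.2 to 27.5 CPM in +/+ effector cells. Over the fl/fl effector libraries Klrb1c ran from 0.671 to 21.8 CPM and Klrk1 from 1.21 to 20.2 CPM, both highest in replicate 1. Prf1 was at 5.97 to 14.1 CPM in fl/fl against 2.96 to 4.22 CPM in +/+ effector libraries. The part of these markers in the result was not tested. Of the ST2-positive tissue Treg genes, 3 of 11 were called between these groups, where 2.81% of all tested genes were. All 3 were lower in fl/fl: Batf (-0.80, adjusted p = 0.00904), Il10 (-4.37, adjusted p = 0.00119, at 16 counts in fl/fl and 301 in +/+ effector libraries) and Ikzf2 (-0.91, adjusted p = 0.00780).

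**Figure D5:**
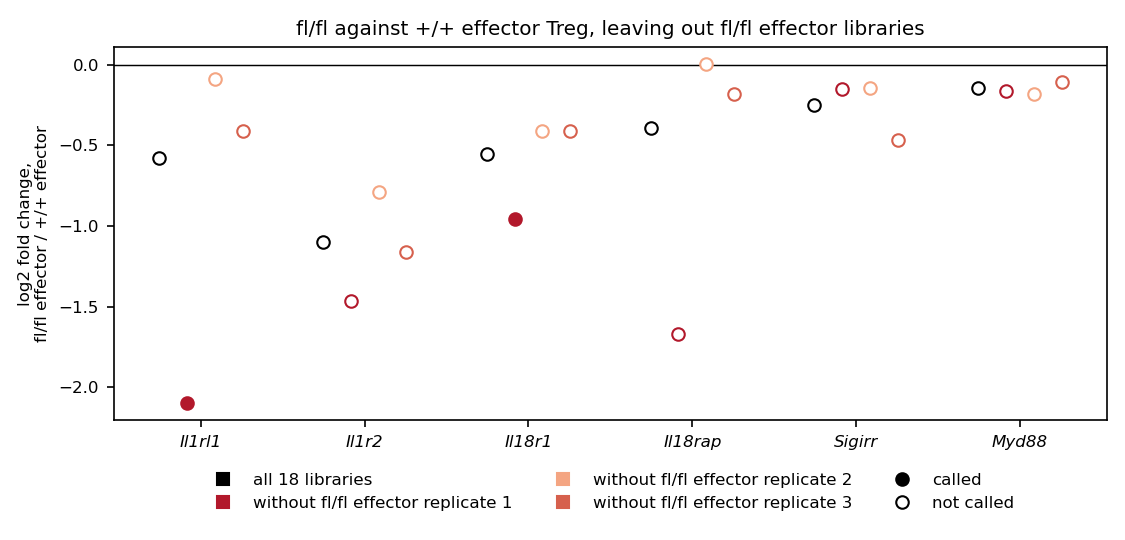
Log2 fold change of fl/fl over +/+ effector cells (y axis) for each of the 6 genes, with all 18 libraries and without each fl/fl effector library in turn; filled points were called. With all libraries no point is filled, and without replicate 1 Il1rl1 at -2.10 and Il18r1 at -0.95 are.

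Against fl/+ effector cells, Il1r2 was again lower in fl/fl without being called (-1.24, SE 0.368, adjusted p = 0.125), at 11.1 to 28.3 CPM in fl/fl and 35.7 to 61.4 CPM in fl/+ libraries. Both comparisons use the same fl/fl libraries. None of the 6 genes was called there, where 0.677% of all tested genes were, and Il1r2 alone had an unadjusted p under 0.05. Between fl/+ and +/+ effector cells none of the 6 was called and none had an unadjusted p under 0.05, in a comparison that called 0.00941% of tested genes. There Il18rap differed by -0.89 (adjusted p = 0.942) with 5.18 to 7.74 CPM in fl/+ and 8.5 to 16.1 CPM in +/+ libraries, and Il1r2 by 0.15 (95% interval -0.58 to 0.87).

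In resting cells none of the 6 was called between fl/fl and +/+ (0.696% of tested genes called), between fl/+ and +/+ (0.0847%) or between fl/fl and fl/+ (0.0282%), and none had an unadjusted p under 0.05 in the 3 comparisons. DESeq2 and limma called none of the 6 in these or in the effector comparisons named above. Il18r1 differed by 0.44 between fl/fl and +/+ resting cells (95% interval -0.06 to 0.94), at 28.5 to 34.6 CPM in fl/fl and 18.6 to 29.2 CPM in +/+ libraries. For Il1rl1, Il1r2 and Il18rap the resting counts were too few to show any but a large difference, the intervals for fl/fl against +/+ being -3.06 to 0.48, -0.74 to 2.90 and -0.81 to 2.79.

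Whether the change between states differed by genotype was tested as an interaction. For fl/fl against +/+ no gene was called (0% of 10630 tested, 953 at an unadjusted p under 0.05, 16 called by DESeq2 and 3 by limma on log2(FPKM + 1)), nor did either of those tools call any of the 6. The change of Il18r1 was smaller in fl/fl (-0.996 on the log2 scale, SE 0.318, edgeR adjusted p = 0.381), as was that of Il1r2 (-2.18, SE 0.945, adjusted p = 0.507). These 2 of the 6 had an unadjusted p under 0.05. Within each of the 3 replicate numbers both estimates were negative, at -0.94, -1.57 and -0.75 for Il18r1 and -2.16, -0.25 and -2.66 for Il1r2. Without fl/fl effector replicate 1 the interaction of Il18r1 was called (-1.39, adjusted p = 0.0314). For fl/+ against +/+ 0.0188% of tested genes were called, none of the 6 among them, and none of the 6 had an unadjusted p under 0.05.

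The genes with the profile most like each of 3 receptors over the 6 group means were sought among 8747 genes that averaged 5 CPM or more, by the root mean square difference of centred log2 levels. For Il1rl1 they were Casp4, an inflammatory caspase gene, at 0.0692, Cpq at 0.135 and Nrn1 at 0.154. Casp4 averaged 21.2, 28.2 and 43.9 CPM in fl/fl, fl/+ and +/+ effector cells and 4.33, 7.76 and 8.48 CPM in resting cells in the same order. For Il1r2 they included Tox2, a transcription factor gene, at 0.234 and Cxcr3 at 0.267. Tox2 averaged 18.9, 43.3 and 54.8 CPM in fl/fl, fl/+ and +/+ effector cells and 2.19, 0.406 and 1.15 CPM in resting cells. For Il18r1 they were Acot11 at 0.0826, Rxra at 0.109 and Tmem154 at 0.12. The 6 group means share libraries with those of the receptors, and no test was made of these likenesses.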

How the data were processed

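Per the submitters' processing notes, bcl2fastq 2.17.1.14, STAR 2.6.0, RSEM 1.2.8 and the mm10 build were used. Neither the annotation nor the strand setting is stated. The authors deposited expected counts per gene and library, estimated with RSEM per the submitters' processing notes, of which 29.4% of nonzero values were not whole. They also deposited FPKM values per gene. Counts were rounded and analysed in R 4.3.3 with edgeR 4.0.16: TMM scaling, filterByExpr, 6 group means over 18 libraries, the quasi-likelihood F test and Benjamini-Hochberg adjustment over 10630 genes, with calls at an adjusted p under 0.05. CPM are scaled by TMM, and differences are log2 of the first group over the second. Counting floors of 3 counts and all intervals cover these samples only, and PCR reads without molecular identifiers are not independent molecules. The ribosomal gene Rn45s stayed in the totals. Alternatives were DESeq2 1.42.0, limma 3.58.1 on log2(FPKM + 1) or log2(FPKM + 0.1), RLE scaling, other filters, only the groups compared, a replicate block, and leaving out each library. The fit was tested on simulated data.

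The replicate number is called batch in the labels. Whether the effector and resting libraries of a number came from the same mice is not stated. The main fit did not use the number. Residuals of the same number and genotype correlated at 0.207 on average (0.141 to 0.345, 9 pairs). Those of the same number and another genotype correlated at 0.0666 (36 pairs), and those of different numbers and groups at -0.0473 (90 pairs).

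The genes and lists were chosen with earlier results of these data known. Named were the 6 genes, all genes of the receptor, ligand and signalling lists, called genes of the other lists, and the 3 most similar profiles of Il1rl1, Il1r2 and Il18r1, leaving out predicted and RIKEN genes. The level of the floxed gene, and 1 gene that this rule names, are not reported here. Protein sequences were not used here.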

Additional observations from a re-analysis of the deposited data

How the results depend on the processing

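Across 28 alternatives, the 4 state calls in +/+ and that of Il1r2 in all genotypes held. In fl/fl, 4 genes were called between states, and 1 when only those groups were fitted, by limma on log2(FPKM + 1) with or without a filter and on log2(FPKM + 0.1), and without both fl/fl libraries of number 1 (added after seeing the data); leaving out single libraries gave 1 to 4, and 2 to 4 in fl/+. Between fl/fl and +/+ effector cells 0 genes were called, 2 with no filter on low counts (830 genes in all against 299), 3 without both number 1 libraries, and 0 to 2 without single libraries. Between fl/fl and fl/+ effector cells 1 was called with no filter and 1 without both, and for the fl/fl interaction 2 with no filter and 0 to 1 without single libraries. The replicate block used the number alone, shared by the genotypes, so pairs of the same number and genotype were not fitted. It changed none of the 11 counts over the 6 genes. Over all genes the block called 552 against 299 between fl/fl and +/+ effector cells and 179 against 74 in resting cells. The cause of these shifts was not tested.

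Signs changed in 53 cases, all for differences that were not called. Without single libraries, state changes in fl/fl ran from -0.304 to 0.005 for Sigirr (0.013 without both number 1 libraries) and from -0.061 to 0.031 for Myd88. In FPKM the Myd88 change was 0.052 in fl/fl (0.053 with 0.1 added) and 0.040 in fl/+ (0.041). For fl/fl against +/+, Il18rap ran from -1.67 to 0.006 in effector cells; in resting cells Il1r2 ran from -0.200 to 1.58 (-0.192 without both), Il18rap from -0.016 to 2.20 (-0.007 without both), Sigirr from -0.071 to 0.148 and Myd88 from -0.112 to 0.114. For fl/+ against +/+, Il1r2 ran from -0.016 to 0.335 and Myd88 from -0.160 to 0.007 in effector cells; in resting cells Il1rl1 ran from -0.691 to 0.234, Il18rap from -0.701 to 1.05 (0.026 and 0.153 in FPKM), Sigirr from -0.048 to 0.173 and Myd88 from -0.035 to 0.189, and Il1r2 was at 0.141 with 0.1 FPKM added. For fl/fl against fl/+ effector cells, Il1rl1 was at 0.12, at -0.135 with the replicate block, at -0.160 and -0.515 in FPKM and at -1.405 without both number 1 libraries, and ran from -1.406 to 0.607; Il18rap was at -0.003 with 0.1 FPKM added and -0.782 without both, and ran from -0.787 to 0.889. Resting Sigirr ran from -0.103 to 0.030. The fl/fl interaction of Il1rl1 was at -0.363 and -0.370 in FPKM and -0.864 without both, and ran from -0.804 to 1.21; that of fl/+ was at -0.035 for Il1r2 with 0.1 FPKM added and from -0.138 to 0.075 for Sigirr. Depth limits Il1rl1, Il18rap and Il1r2 in resting cells, at 6 to 23 counts a group.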
